A study of Mus musculus with 24 samples.

Results

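The genes described here encode the proteases, kinases, adaptors and pore formers of regulated cell death, and the ligands and receptors of the tumour necrosis factor (TNF) superfamily, in mouse kidney during and after ureter obstruction. They were chosen by name: protein coding genes whose symbol begins with Casp, Ripk, Nlrp or Birc and a digit, or with Tnfrsf, Tnfsf, Gsdm or Bcl2l, together with Mlkl, Pycard, Aim2, Bax, Bak1, Bcl2, Mcl1, Fadd and Tradd. Tnfrsf17 was left out. The rule found 60 genes among the 14785 genes of the deposited table, of which 13071 are protein coding. No gene of the table has a mean under 1 FPKM over the libraries (fragments scaled to transcript length and library size), and family members without a row, Nlrp3 and Tnfrsf11b among them, are not analysed here. Of the 60 genes, 17 had a mean under 1 FPKM in the sham group and 0 in the groups of 1, 2 or 4 weeks of recovery, so those 17 are in the table through the groups in which they were higher. They are Casp1, Casp12, Ripk3, Mlkl, Aim2, Nlrp1b, Tnfsf9, Tnfsf13, Tnfsf13b, Tnfrsf1b, Tnfrsf4, Tnfrsf9, Tnfrsf13b, Tnfrsf14, Tnfrsf19, Tnfrsf22 and Tnfrsf23. The gaps and adjusted p-values of these 17 against sham, given below, carry that limit and are not read as a test. The sham mean was under 1 FPKM for 28.3% of the 60 genes and of 10.8% of all genes.

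The animals were male C57/BL6 mice labelled as aged 8 weeks (8 to 9 weeks at the start), 10 in each group, and 4 of these 10 were sequenced, chosen by a criterion that the sources used here do not give. Controls had sham surgery. In UUO2 and UUO7 (UUO-2 and UUO-7 in the labels) the ureter of one kidney was ligated and the animal was killed 2 or 7 days later. In R1W, R2W and R4W the ureter was ligated for 7 days and then reimplanted, and the kidney was taken 1, 2 or 4 weeks after that reversal. The series' title says the tissue was kidney cortex, and libraries were made by polyA selection. One library titled R4W 2 carries a treatment label of 2 weeks, and it was grouped by its title.

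Apoptosis is run by caspases, which are activated either by death receptors of the TNF receptor superfamily through Fadd and Casp8, or by mitochondria once Bax and Bak1 overcome the pro-survival proteins of the BCL2 family. Necroptosis is a lytic death in which Ripk3 phosphorylates the pore former Mlkl, and pyroptosis is a lytic death in which inflammatory caspases cleave gasdermin D. In the obstructed kidney, tubule cells die and tubules atrophy while leukocytes enter, and both tubule cells and leukocytes use TNF superfamily signals. In bulk tissue, fewer cells of a type and less RNA per cell cannot be told apart.

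The libraries differed in ways that bear on the values below. The UUO2 libraries showed no whole-fragment steps, whereas the other 20 did, with an implied 25400000 to 35300000 fragments each. They also held 2343 to 2832 FPKM of the mitochondrial ribosomal RNA mt-Rnr1, against 342 to 709 elsewhere, and the series' design text speaks of 20 libraries sequenced together. A difference of library preparation or run and 2 days of obstruction cannot be told apart, so every value of UUO2 carries that limit. UUO2 replicate 2 stood apart from the other UUO2 libraries, with 2586 summed scaled FPKM of 6 proximal tubule markers against 1536 to 1849, and values without it are given beside several results for UUO2. Sham replicate 2 had 29.1 summed scaled FPKM of 4 urothelium markers against 0.657 to 1.87 in the other shams, and R4W replicate 1 had 977 of 4 adipose markers against 57.1 to 198. Markers of tubule, immune and cycling cells moved with the groups. The 6 proximal tubule markers summed to 3733 to 4838 in sham, 1536 to 2586 in UUO2, 631 to 813 in UUO7, 880 to 1624 in R1W, 1012 to 2249 in R2W and 1489 to 2215 in R4W. The 7 macrophage markers summed to 62.3 to 95.2, 93.2 to 211, 847 to 987, 921 to 1201, 831 to 1788 and 677 to 1277 in the same order, and the 6 T cell markers to 2.57 to 4.36, 1.95 to 3.55, 9.77 to 15.4, 17.5 to 23.2, 18.1 to 27.2 and 17.8 to 34.1. The 4 cycling markers summed to 4.52 to 5.12, 28.9 to 59.95, 39.95 to 49.6, 20.2 to 27.8, 17.6 to 29.4 and 10.1 to 20.6. The 4 injured tubule markers summed to 6.68 to 24.1, 759 to 1241, 1212 to 1455, 443 to 602, 259 to 698 and 194 to 280. The 5 fibroblast and pericyte markers summed to 21.2 to 50.6, 67.97 to 118, 376 to 491, 318 to 358, 226 to 400 and 184 to 274. Of 6 B and plasma cell markers 3 had a row, and they summed to 18.4 to 30.5, 7.79 to 14.4, 34.7 to 71.6, 74.5 to 138, 66.1 to 121 and 155 to 613. No marker with a row in these 7 lists was at 0 in any library. Their part in the results below was not tested.

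Values are deposited FPKM divided by a library factor, called scaled FPKM, and differences are on the log2(scaled FPKM + 1) scale with their standard error (SE) and the Benjamini-Hochberg adjusted p of limma over all genes. A gene was called at an adjusted p under 0.05. Without the factor the median of all genes was 0.42 higher in UUO7 than in sham and 0.30 higher in R4W than in sham, on the log2 scale. The value as deposited is given beside the differences of named genes whose direction or call depended on the factor.

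After 7 days of obstruction, the count of genes higher than in sham depended in part on which genes the table holds. Against sham, 38 of the 60 rose, 11 fell and 11 were not called, while limma called 73% of all genes in this comparison, 36.5% higher and 36.5% lower. Of the 17 genes with a sham mean under 1 FPKM 16 rose and 0 fell, beside 77.7% and 0.624% of the 1603 such genes in the table. Of the other 43 genes 22 rose and 11 fell, beside 31.5% and 40.9% of the other 13182. Nothing is read from the 38, since the former genes had to be higher in another group. On values as deposited the split was 49 higher and 2 lower, when 77.9% of all genes were called and 77.1% of those were higher, so the same tilt is seen over all genes. There, 3 of the genes called here (Birc6, Gsdme and Casp9) were called in the opposite direction to that given here. The median log2 difference of the 60 genes was 0.88 and that of all genes was 0.01. Over the 36 of the 60 genes with a mean of at least 5 the median was 0.50, and nothing is drawn from either median for the same reason. With a minimum absolute log2 difference of 1, 24 rose and 2 fell, beside 13.4% and 10.8% of all genes. The 4 UUO7 libraries did not overlap with the 4 sham libraries for 47 of the 60 genes and for 68.4% of all genes. After 2 days 24 genes were higher and 5 lower, with a median of 0.17, in a comparison that called 50.8% of all genes, 25.3% higher and 25.5% lower. At the same minimum difference 7 rose and 2 fell, beside 5.03% and 4.04% of all genes. UUO2 and sham did not overlap for 22 of the 60 genes and 41.7% of all genes. Without UUO2 replicate 2 the count was 24 higher and 7 lower (54.9% of all genes called), and the 29 genes called with it were among them in the same direction. Between 2 and 7 days 37 rose and 8 fell, with 62% of all genes called, 30% higher and 31.9% lower, and on values as deposited 46 rose and 2 fell, with 66.7% of all genes called and 78% of those higher. Without UUO2 replicate 2 the scaled values gave 33 higher and 9 lower, with 59.5% of all genes called. At the minimum difference of 1, 11 rose and 0 fell, beside 9.18% and 5.04% of all genes, and UUO7 and UUO2 did not overlap for 41 of the 60 genes and 56.3% of all genes. The group with the highest mean was UUO7 for 22 of the 60 genes, R2W for 13, sham for 7, UUO2 for 7, R4W for 6 and R1W for 5. Of all genes, 21.2% were highest in UUO7, 6.61% in R2W, 30.3% in sham, 20.6% in UUO2, 11.6% in R4W and 9.68% in R1W.

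**Figure D1:**
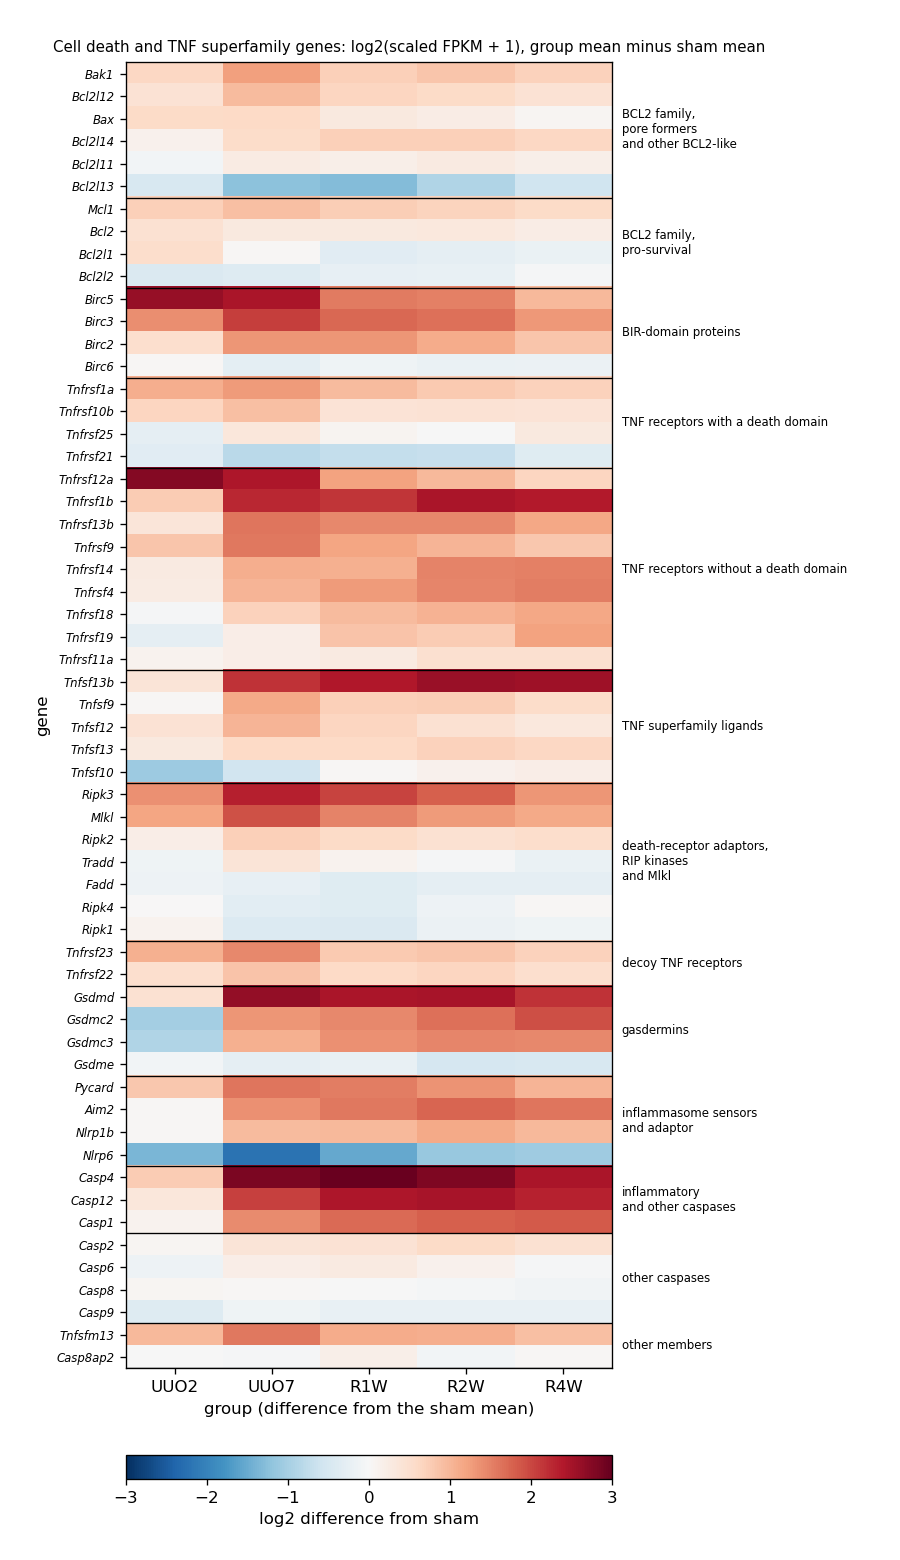
Each row is 1 gene and each column a group. The colour gives the difference of the mean log2(scaled FPKM + 1) of the group's 4 libraries from the mean of the 4 sham libraries, from blue (lower) to red (higher), and genes are grouped by role. Casp4, Gsdmd and Tnfsf13b are red from UUO7 to R4W, Tnfrsf12a and Birc5 are red in UUO2 and UUO7 and paler after reversal, and Nlrp6 is blue throughout. On values as deposited the UUO7 differences of Ripk1, Ripk4, Fadd, Birc6, Bcl2l2, Casp9, Gsdme and Casp8ap2 change sign.

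The promoters of 5 of the genes that rose in UUO7 are shown because they hold a motif of a factor that acts in TNF or interferon signalling. RefSeq windows of GRCm38.p6 around transcript starts were found for 49 of the 60 genes (61 windows). They were searched on both strands for GGGA, any base, TT, any base, CC (NF-kB), for GAAA, any pair of bases, GAAA (the interferon-stimulated response element, ISRE) and for TGANTCA (AP-1), and the printed matches do not overlap one another. Capitals mark matches, and each run reads along the gene's strand.
Casp4 (chr9:5308599-5308898, + strand): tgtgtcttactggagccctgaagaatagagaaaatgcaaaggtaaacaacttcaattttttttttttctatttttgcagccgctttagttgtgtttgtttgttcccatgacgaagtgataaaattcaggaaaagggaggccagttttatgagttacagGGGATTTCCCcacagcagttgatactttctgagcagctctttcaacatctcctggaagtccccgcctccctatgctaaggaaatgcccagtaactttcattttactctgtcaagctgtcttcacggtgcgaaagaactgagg
Tnfrsf9 (chr4:150927749-150928048, + strand): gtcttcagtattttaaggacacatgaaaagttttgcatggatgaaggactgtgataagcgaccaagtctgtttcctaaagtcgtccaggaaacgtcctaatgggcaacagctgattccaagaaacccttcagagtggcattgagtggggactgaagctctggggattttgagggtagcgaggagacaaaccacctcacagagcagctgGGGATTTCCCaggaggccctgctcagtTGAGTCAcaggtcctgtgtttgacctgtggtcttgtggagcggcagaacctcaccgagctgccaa
Birc5 (chr11:117848987-117849286, + strand): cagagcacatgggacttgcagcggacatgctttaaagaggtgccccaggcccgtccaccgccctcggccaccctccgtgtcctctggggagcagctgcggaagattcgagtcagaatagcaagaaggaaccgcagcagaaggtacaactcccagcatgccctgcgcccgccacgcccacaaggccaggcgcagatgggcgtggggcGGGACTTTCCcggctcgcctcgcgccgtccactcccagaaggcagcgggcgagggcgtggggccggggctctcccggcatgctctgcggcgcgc
Tnfrsf1b (chr4:145246821-145247120, - strand): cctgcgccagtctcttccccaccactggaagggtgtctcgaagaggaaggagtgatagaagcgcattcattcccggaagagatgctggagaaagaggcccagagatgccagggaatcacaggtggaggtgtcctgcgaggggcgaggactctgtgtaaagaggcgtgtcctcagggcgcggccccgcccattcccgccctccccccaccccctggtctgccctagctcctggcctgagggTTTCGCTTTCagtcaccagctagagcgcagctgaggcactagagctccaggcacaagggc
Tnfsf13b (chr8:10006383-10006682, + strand): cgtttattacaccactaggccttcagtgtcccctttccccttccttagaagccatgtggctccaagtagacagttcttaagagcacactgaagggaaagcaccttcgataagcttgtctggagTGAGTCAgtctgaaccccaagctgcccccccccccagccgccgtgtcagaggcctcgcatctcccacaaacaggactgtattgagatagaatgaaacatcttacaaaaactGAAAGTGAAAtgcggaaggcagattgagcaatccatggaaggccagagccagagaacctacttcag
Casp4 and Tnfrsf9 hold the same NF-kB letters, GGGATTTCCC, starting at base -92 and base -42 from the transcript start, and Birc5 holds GGGACTTTCC at base -44. Tnfrsf9 also holds TGAGTCA at base -15. Tnfrsf1b holds the ISRE as its reverse complement TTTCGCTTTC at base -10, and Tnfsf13b holds GAAAGTGAAA at base -16 and TGAGTCA at base -127. The NF-kB letters were found in 4 of the 61 windows (3 genes, with 2 overlapping windows of Casp4) and in 1.2% of the 32851 windows of all genes. The ISRE letters were in 4 windows (4 genes) and in 3.44%, and the AP-1 letters in 5 (4 genes, with 2 overlapping windows of Tnfsf13b) and in 7.81%. The ISRE letters were also in the windows of Ripk1 and Tnfrsf14, and the AP-1 letters in those of Nlrp6 and Tnfsf13. A match describes the letters of the window and not a factor bound there.

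On the log2(scaled FPKM + 1) scale, the greatest differences of UUO7 from sham among the 60 genes were those of Casp4 and Gsdmd, both of the pyroptosis pathway. That scale understates the change of low genes, and the rank depends on it. In the authors' deposited table the log2 fold changes of Ripk3 (3.45), Casp12 (3.35), Tnfrsf1b (3.15) and Aim2 (3.09) exceeded that of Gsdmd (3.07). Casp4 (caspase-11, which senses cytosolic lipopolysaccharide and cleaves gasdermin D; chr9:5308828-5336783), whose promoter holds the NF-kB letters, had 1.71, 1.25, 1.45 and 1.07 scaled FPKM in the 4 sham libraries, 3.39, 1.71, 2.98 and 4.42 in UUO2 and 14.7, 16.4, 14.98 and 17.3 in UUO7. The UUO7 values all lay above the UUO2 values, and UUO2 replicate 2 was level with the highest sham. The log2 difference from sham was 0.76 (SE 0.22, limma adjusted p = 0.00575) after 2 days and 2.83 (SE 0.22, adjusted p = 7.07e-10) after 7 days. Gsdmd (gasdermin D, the pore former of pyroptosis; chr15:75862339-75867404) went from 2.43, 2.88, 2.04 and 2.10 in sham to 3.55, 2.84, 3.04 and 5.25 in UUO2 and 18.7, 20.4, 21.04 and 19.8 in UUO7. Its UUO2 values began within the sham range (log2 0.45, SE 0.16, adjusted p = 0.0255), and its UUO7 values were far above both, with a log2 difference from sham of 2.65 (SE 0.16, adjusted p = 6.09e-11). Casp1 (the protease that matures interleukin-1 beta; chr9:5298517-5307265) measured 0.442, 0.299, 0.570 and 0.508 in sham, 0.640, 0.532, 0.513 and 0.575 in UUO2 and 2.33, 3.60, 2.47 and 3.22 in UUO7. It was not called after 2 days (log2 0.11, adjusted p = 0.521) and rose by 7 days (log2 1.41, SE 0.13, adjusted p = 9.52e-09). Casp12, whose gene lies next to both on chromosome 9 (chr9:5345430-5373032), rose from a mean of 0.732 ± 0.262 (SD, n = 4) to 6.08 ± 0.359 with a log2 difference of 2.04.

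The inflammasome genes split. Pycard (ASC, the adaptor that joins sensors to caspase-1) measured 17.4, 19.8, 16.5 and 18.4 in sham, 33.2, 35.05, 25.8 and 34.9 in UUO2 and 47.8, 56.8, 69.2 and 55.5 in UUO7, and the 3 groups did not overlap. Its log2 difference from sham was 0.80 after 2 days and 1.61 after 7 (SE 0.13, adjusted p = 1.39e-09). Aim2, a sensor of cytosolic DNA, rose at 7 days (log2 1.37, adjusted p = 2.18e-06) from 0.449 ± 0.193 to 2.75 ± 0.654, and differed from sham by 0.04 at 2 days, which was not called. Nlrp1b, another sensor, also rose at 7 days, from 0.148 ± 0.0446 to 1.21 ± 0.195. Nlrp6, a sensor best known from epithelium, went the other way. Its values were 71.2, 41.8, 64.3 and 57.6 in sham, 16.9, 44.2, 17.6 and 16.8 in UUO2 and 12.8, 11.8, 11.4 and 10.3 in UUO7, so that UUO7 lay far below every sham. The log2 difference at 7 days was -2.22 (SE 0.26, adjusted p = 1.36e-07), the greatest fall among the 60 genes. At 2 days it was -1.37, and -1.70 without UUO2 replicate 2, whose value of 44.2 lay within the sham range. Gsdme, another gasdermin, was lower at 7 days after scaling (log2 -0.28, adjusted p = 0.00668) and higher on values as deposited (log2 0.15).

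Both core genes of necroptosis rose by 2 days and again by 7 days. Both had sham means under 1 FPKM and are in the table through groups in which they were higher, so these rises are not read as a test. Ripk3 (chr14:55784995-55788865) measured 0.455, 0.736, 0.735 and 1.39 in sham, 4.47, 1.56, 3.54 and 6.48 in UUO2 and 7.84, 9.03, 6.57 and 8.85 in UUO7. The groups did not overlap, although UUO2 replicate 2 at 1.56 was only just above the highest sham. The log2 difference from sham was 1.38 at 2 days (1.67 without UUO2 replicate 2) and 2.33 at 7 days (SE 0.26, adjusted p = 8.33e-08). Mlkl (chr8:111311797-111338177) measured 0.607, 0.885, 0.608 and 0.942, 3.41, 1.83, 3.07 and 3.97 and 5.24, 5.91, 6.45 and 5.04 in the same groups, again without overlap, with log2 differences of 1.19 and 1.92 (adjusted p = 7.89e-10). Ripk1, the kinase that acts upstream of Ripk3 and of caspase-8, did not rise with them: it measured 10.3, 9.84, 10.7 and 10.5 in sham and 7.75, 8.45, 6.04 and 8.28 in UUO7, a log2 difference of -0.40 (adjusted p = 0.000338), which was 0.04 and not called on values as deposited. Exons of Ripk1 overlap Serpinb6a on the opposite strand, and with counting by strand not given in the sources used here its reads could be split between both.

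**Figure D2:**
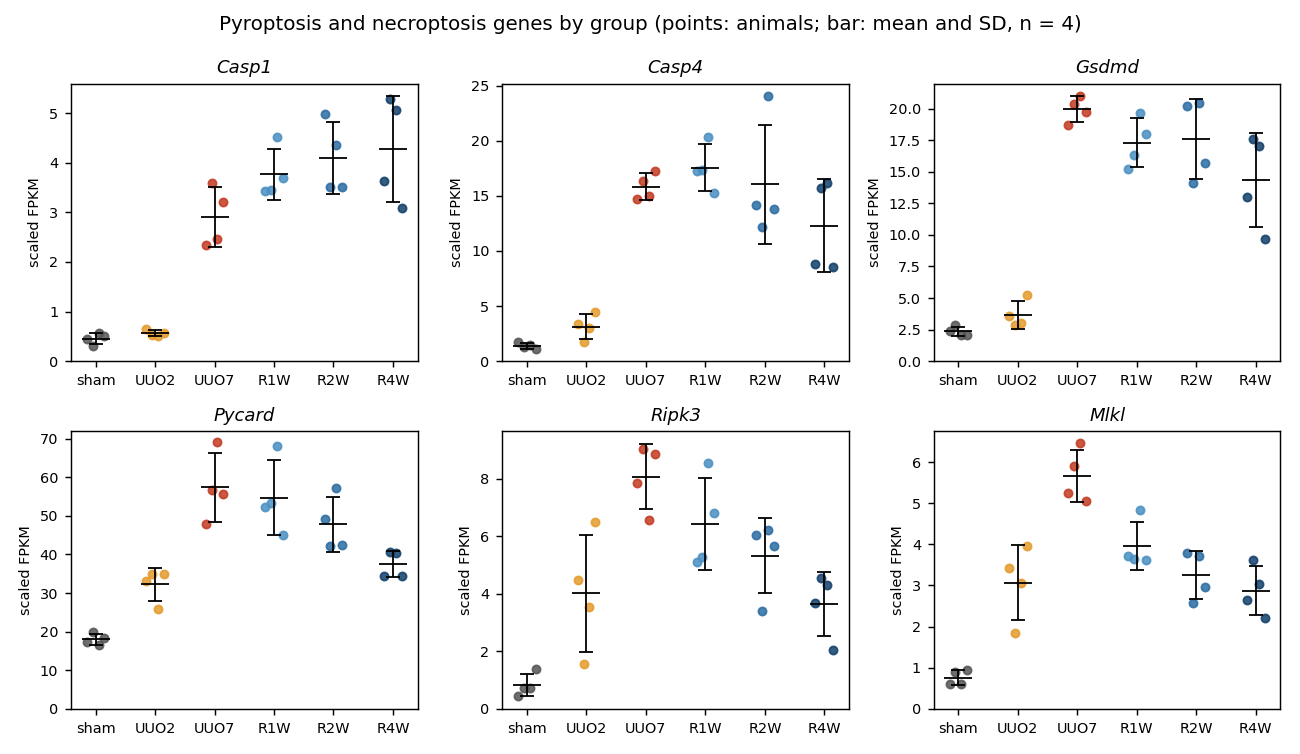
Scaled FPKM (y axis, linear, from 0) of Casp1, Casp4, Gsdmd, Pycard, Ripk3 and Mlkl in the 6 groups (x axis). Points are animals, and bars are the mean and SD of 4. Casp1, Casp4 and Gsdmd are low in UUO2 beside UUO7, although Casp4 and Gsdmd were called higher than sham there. Pycard, Ripk3 and Mlkl lie above all shams in UUO2, and they and Gsdmd are lower in R4W than in UUO7.

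Of the caspases of apoptosis, Casp2 and Casp6 rose in UUO7 (log2 0.40 and 0.20). Casp8, the initiator at death receptors, measured 22.3, 17.6, 23.1 and 22.2 in sham and 21.3, 23.4, 22.7 and 19.97 in UUO7. The ranges overlapped, with a log2 difference of 0.04 (SE 0.09, adjusted p = 0.695), against 0.50 and a call on values as deposited. Casp9, the initiator of the mitochondrial path, was lower by 2 days (log2 -0.38, adjusted p = 1.73e-05), and at 7 days its difference of -0.14 became 0.31 on values as deposited. Of the death-receptor adaptors, Fadd was lower at 7 days (log2 -0.25, and 0.16 on values as deposited), and Tradd, which couples TNF receptor 1 to its kinases, rose (log2 0.38, adjusted p = 0.000248).

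The pore formers of the BCL2 family rose. Bax measured 65.7, 62.3, 63.1 and 64.8 in sham, 100, 82.4, 103 and 99.5 in UUO2 and 101, 88.9, 105 and 96.5 in UUO7. Every obstructed kidney was above every sham, and UUO2 and UUO7 overlapped. The log2 difference from sham was 0.57 at 2 days and 0.60 at 7 days (SE 0.09, adjusted p = 4.32e-06). Bak1, its partner, rose in 2 steps, from 8.44 ± 0.307 in sham to 13.7 ± 2.60 in UUO2 and 21.1 ± 1.19 in UUO7 (log2 1.23 against sham), with the caution that its exons overlap Ggnbp1 on the other strand. Bcl2l13, a mitochondrial protein, fell: its values were 15.6, 9.97, 11.1 and 9.40 in sham and 3.97, 5.46, 3.67 and 3.92 in UUO7, with no overlap (log2 -1.24, SE 0.15, adjusted p = 2.42e-07). Its exons overlap those of Bid on the other strand.

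The pro-survival members took 3 different courses. Mcl1 measured 40.6, 44.9, 37.5 and 39.05 in sham, 79.1, 46.03, 74.01 and 76.1 in UUO2 and 77.3, 80.8, 73.7 and 73.1 in UUO7, so that it was higher in every obstructed kidney (log2 0.90 at 7 days, SE 0.13, adjusted p = 3.7e-06). Bcl2 rose slightly, from 2.23 ± 0.115 to 3.44 ± 0.533 in UUO2 and 2.97 ± 0.145 in UUO7. Bcl2l1, which encodes BCL-XL, was high only at 2 days among the groups compared with sham: it measured 60.2, 66.8, 62.1 and 55.7 in sham, 105, 62.00, 92.1 and 103 in UUO2 and 64.95, 58.5, 67.96 and 58.1 in UUO7. UUO2 replicate 2 lay within the sham range and the other 3 above it, and the log2 differences were 0.53 in UUO2 against sham (0.70 without that replicate), 0.03 in UUO7 against sham, which was not called, and -0.50 in UUO7 against UUO2. On values as deposited the UUO7 difference from sham was 0.51 and was called, and that of UUO7 from UUO2 was -0.16 and was not. Bcl2l2, which encodes BCL-W, was lower at 2 days (log2 -0.42) and at 7 days (log2 -0.38), and the value at 7 days as deposited was 0.09.

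The BIR-domain genes include the ubiquitin ligases cIAP1 (Birc2) and cIAP2 (Birc3), which steer TNF receptors towards survival, and survivin (Birc5), which is made in dividing cells. Birc3 measured 7.43, 8.42, 6.43 and 6.78 in sham, 24.4, 12.4, 22.8 and 25.8 in UUO2 and 35.2, 33.5, 31.7 and 33.5 in UUO7. The 3 groups did not overlap, and the log2 difference at 7 days was 2.07 (SE 0.18, adjusted p = 4.73e-09). Birc2, its neighbour on chromosome 9, rose from 12.04 ± 0.104 to 31.8 ± 3.61 (log2 1.32), and reads shared by these near relatives could be split between them. Birc5 measured 1.66, 2.01, 1.84 and 2.79 in sham, 20.5, 10.6, 17.4 and 25.2 in UUO2 and 13.02, 15.5, 19.02 and 15.8 in UUO7, with log2 differences of 2.61 and 2.45 (SE 0.21, adjusted p = 2.73e-09). The lowest obstructed kidney, UUO2 replicate 2, was far above the highest sham. The summed cycling markers moved with Birc5 over the 6 groups, and their part in it was not tested. Birc6 was lower at 7 days (log2 -0.30) and higher on values as deposited (0.17).

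**Figure D3:**
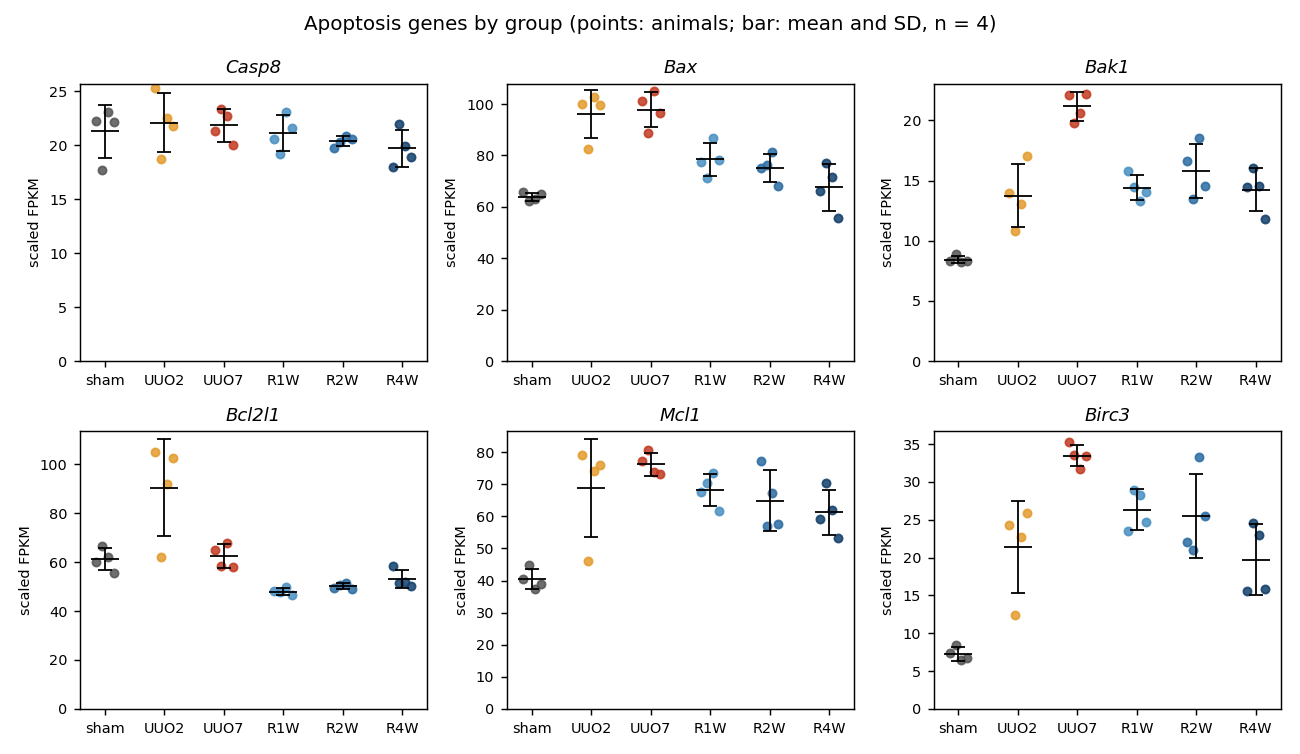
Scaled FPKM (y axis, linear, from 0) of Casp8, Bax, Bak1, Bcl2l1, Mcl1 and Birc3 in the 6 groups (x axis). Points are animals, and bars are the mean and SD of 4. Casp8 overlaps between all groups, Bax is high in UUO2 and UUO7, Bak1 is highest in UUO7, Bcl2l1 is high in 3 of the 4 UUO2 libraries, and Mcl1 and Birc3 remain above the 4 sham libraries in every group. On values as deposited Casp8 was called higher in UUO7 than in sham.

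Among the TNF receptors, Tnfrsf12a (Fn14, the receptor of the ligand TWEAK, chr17:23675447-23677449) had the greatest early difference on the log2(scaled FPKM + 1) scale. It measured 21.96, 29.4, 21.7 and 21.4 scaled FPKM in sham, 239, 49.4, 248 and 241 in UUO2 and 147, 136, 132 and 110 in UUO7. UUO2 replicate 2 was far below the other UUO2 libraries but above every sham. The log2 difference was 2.75 at 2 days (3.32 without that replicate) and 2.43 at 7 days (SE 0.35, adjusted p = 2.61e-06). From 2 to 7 days the difference of -0.32 (SE 0.35) was not called, and without UUO2 replicate 2 it was -0.89 and was called. Its ligand Tnfsf12 (TWEAK) rose as well, from 18.8, 19.6, 16.9 and 15.9 in sham to 24.00, 19.8, 29.2 and 24.8 in UUO2 and 35.7, 34.05, 44.3 and 34.6 in UUO7 (log2 1.02 at 7 days, SE 0.10, adjusted p = 3.1e-08). The 3 groups did not overlap. Tnfsf12 shares exons with the readthrough gene Tnfsfm13, which rose too (log2 1.57), and reads could be split between them and Tnfsf13.

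The receptors of TNF itself rose on different schedules. Tnfrsf1a (TNF receptor 1, which carries a death domain and is found on most cells; chr6:125349362-125362484) measured 26.8, 33.5, 26.7 and 28.3 in sham, 72.6, 38.3, 70.6 and 76.9 in UUO2 and 72.3, 67.04, 73.3 and 73.6 in UUO7. All obstructed kidneys were above all shams, with UUO2 replicate 2 the lowest of them, and the log2 difference was 1.09 at 2 days (1.32 without that replicate) and 1.29 at 7 days (SE 0.15, adjusted p = 1.27e-07). Tnfrsf1b (TNF receptor 2, prominent on leukocytes; chr4:145213463-145246870) measured 0.682, 1.82, 0.786 and 0.719, 2.94, 1.38, 2.22 and 2.91 and 8.23, 8.56, 7.67 and 8.96 in the same groups. Sham replicate 2, at 1.82, overlapped with UUO2, and UUO7 was above both. The log2 differences were 0.76 and 2.26 (SE 0.22, adjusted p = 1.28e-08). The ligand Tnf, named outside the symbol rule, was low throughout but rose: it measured 0.101, 0.0920, 0.0507 and 0.0620 in sham, 0.685, 0.215, 0.692 and 0.652 in UUO2 and 1.68, 1.72, 1.60 and 2.22 in UUO7, with no overlap (log2 1.38 at 7 days, adjusted p = 5.56e-08). With sham values far under 1 FPKM, Tnf is in the table only through groups in which it was higher, so its rise is not read as a test.

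The TRAIL system moved in opposite directions. The ligand Tnfsf10 (TRAIL) measured 9.96, 13.1, 12.1 and 14.6 in sham, 4.24, 8.63, 4.23 and 4.81 in UUO2 and 7.83, 7.61, 6.94 and 9.35 in UUO7. Every obstructed kidney lay below every sham, and UUO2 replicate 2 was the highest of its group. The log2 difference was -1.09 at 2 days (-1.30 without that replicate) and -0.59 at 7 days (SE 0.16, adjusted p = 0.00212), and the latter was -0.14 and not called on values as deposited. Its death receptor Tnfrsf10b rose, from 1.56 ± 0.330 to 3.01 ± 0.625 and 3.77 ± 0.291 (log2 0.90 at 7 days), and so did the decoy receptors Tnfrsf23 (log2 1.44) and Tnfrsf22 (log2 0.86), which bind TRAIL without signalling death. Tnfrsf22 and Tnfrsf23 are neighbouring relatives on chromosome 7 whose reads could be split. Tnfrsf21 (death receptor 6) was the one death-domain receptor lower at 7 days, with 76.3, 79.04, 103 and 63.3 in sham and 47.1, 45.3, 46.4 and 39.5 in UUO7 (log2 -0.82, adjusted p = 0.000353, and -0.34 without a call on values as deposited). Of the 9 receptors without a death domain, 7 rose in UUO7 and 0 fell, beside 36.5% of all genes in each direction. Nothing is read from that split, since Tnfrsf1b, Tnfrsf13b, Tnfrsf9, Tnfrsf4, Tnfrsf14 and Tnfrsf19 had deposited sham means under 1 FPKM and are in the table only through groups in which they were higher.

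Tnfsf13b (BAFF, the survival factor of B cells; chr8:10006467-10039072) rose late. It measured 1.24, 1.34, 0.900 and 1.17 in sham, 1.80, 2.10, 1.25 and 2.27 in UUO2 and 7.67, 9.54, 9.60 and 8.39 in UUO7. Sham and UUO2 overlapped and the difference between them was not called (log2 0.39, adjusted p = 0.0887), and at 7 days it was 2.18 (SE 0.19, adjusted p = 3.08e-09). Tnfrsf13b (TACI), one of its receptors, followed with 0.222 ± 0.144 in sham, 0.589 ± 0.262 in UUO2 and 2.73 ± 0.407 in UUO7. Tnfrsf9 (4-1BB, a costimulatory receptor of T cells) was very low in sham, at 0.139, 0.0575, 0.0634 and 0.0620, and reached 2.12, 2.28, 2.35 and 2.12 in UUO7 (log2 1.57).

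**Figure D4:**
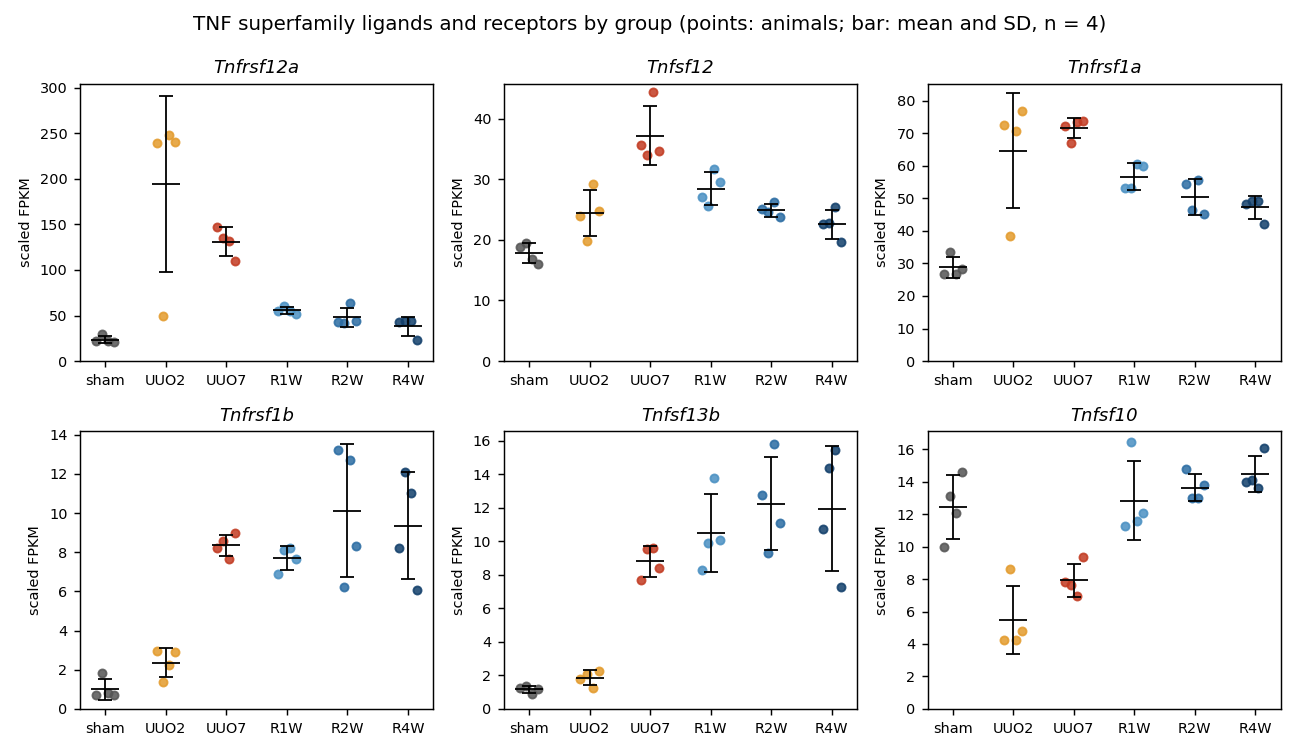
Scaled FPKM (y axis, linear, from 0) of Tnfrsf12a, Tnfsf12, Tnfrsf1a, Tnfrsf1b, Tnfsf13b and Tnfsf10 in the 6 groups (x axis). Points are animals, and bars are the mean and SD of 4. Tnfrsf12a is highest in 3 UUO2 libraries and much lower in R4W, where only replicate 4 lies within the sham range. Tnfrsf1b and Tnfsf13b stay high from UUO7 to R4W, and Tnfsf10 is low in UUO2 and UUO7 and overlaps sham from R1W on.

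After 1 week of reversal the genes called were mostly lower than in UUO7. In R1W against UUO7, 10 of the 60 fell and 1 rose (18.3% called), with 14.4% of all genes called, 7.14% lower and 7.26% higher. At a minimum difference of 1, 1 fell and 0 rose, beside 0.318% and 0.947% of all genes. The groups did not overlap for 19 of the 60 genes and 20.5% of all genes. The greatest fall was that of Tnfrsf12a, which measured 55.5, 60.3, 54.9 and 51.7 in R1W, below every UUO7 library (log2 -1.22, SE 0.35, adjusted p = 0.0255). Birc5 measured 6.93, 8.42, 8.92 and 7.87, again below every UUO7 library (log2 -0.89, adjusted p = 0.00969), while the cycling markers also went down, a part that was not tested. Tnfrsf23, Bak1, Tnfrsf10b, Tnfsfm13, Tnfsf12, Bax, Bcl2l1 and Tradd fell by 0.28 to 0.66 on the log2 scale. Bcl2l1 measured 48.2, 47.7, 49.6 and 46.4, which after scaling was below every sham library too. On values as deposited R1W and sham overlapped for Bcl2l1, and R1W was not compared with sham in limma. The 1 gene that rose was Tnfsf10, at 11.3, 16.4, 11.6 and 12.1 (log2 0.62, SE 0.16, adjusted p = 0.0135), which put it above every UUO7 library and overlapping with sham. Of the pyroptosis genes, Casp4 at 17.2, 17.4, 20.4 and 15.3, Gsdmd at 15.2, 16.4, 19.7 and 17.99 and Casp1 at 3.42, 3.44, 4.53 and 3.69 were not called against UUO7. The count of 11 called genes was 6 without UUO7 replicate 3 and 7 without R1W replicate 1, 2 or 4, and the share of all genes called went down as well, to 7.82% without the first and to 9.48%, 12.5% and 7.36% without the others.

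Of the 38 genes that rose in UUO7, 22 were lower in R4W than in UUO7 and 34 were higher in R4W than in sham. These counts reuse the UUO7 and sham libraries by which the 38 were chosen, and nothing is read from them. In R4W against UUO7, 22 fell and 11 rose, with 48.3% of all genes called, 23.2% lower and 25.1% higher, and on values as deposited 27 fell and 4 rose, with 48.4% of all genes called and 36.4% of those higher. At a minimum difference of 1, 2 fell and 1 rose, beside 2.18% and 3.62% of all genes, and the groups did not overlap for 32 of the 60 genes and 49.1% of all genes. Against sham, 37 were higher and 7 lower, with 60.1% of all genes called, 28.9% higher and 31.1% lower. The 17 genes with a sham mean under 1 FPKM were all among the 37, beside 74.7% higher and 0.374% lower of the 1603 such genes in the table. Of the other 43 genes 20 were higher and 7 lower, beside 23.4% and 34.9% of the other 13182. Against sham 49 were higher and 1 lower on values as deposited, with 66.4% of all genes called and 82.6% of those higher. At a minimum difference of 1, 17 were higher and 1 lower, beside 9.91% and 3.23% of all genes, and the groups did not overlap for 39 of the 60 genes and 58% of all genes. Birc6 was lower after scaling (log2 -0.18) and higher as deposited (0.19). The comparisons of UUO7 and of R4W with sham share the sham libraries, and those of R1W and R4W with UUO7 share the UUO7 libraries. The medians against sham in R4W were 0.57 for the 60 genes and -0.01 for all genes, and 0.27 for the 36 of the 60 with a mean of at least 5. Nothing is read from these medians, since 17 of the 60 genes are in the table through groups in which they were higher. R4W against R1W called 10 genes, 4 higher and 6 lower, with 17.3% of all genes called, 8.67% higher and 8.6% lower, and on values as deposited 2 higher and 9 lower, with 19.1% of all genes called and 26.4% of those higher. At a minimum difference of 1 it called 0, beside 0.521% higher and 0.284% lower of all genes. In limma 18 of the 60 genes had an unadjusted p under 0.05, beside 5192 of all 14785 genes. The groups did not overlap for 15 of the 60 genes and 21.2% of all genes. The count of 10 was 2 without R1W replicate 3, 6 without R1W replicate 4 and 6 without R4W replicate 1, and it was 0 in a fit on those 2 groups alone, in which limma gave 20 of the 60 genes and 4461 of all 14785 an unadjusted p under 0.05. The share of all genes called was 3.18%, 12.6%, 9.11% and 0.778% under these 4 alternatives.

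On the log2 scale the greatest falls from UUO7 to R4W among the 60 genes were those of Tnfrsf12a (-1.78) and Birc5 (-1.49). Tnfrsf12a measured 42.7, 41.7, 64.02 and 43.6 in R2W and 42.4, 44.5, 43.8 and 22.9 in R4W. R4W replicate 4 lay within the sham range and the other 3 above it, 13.8% of the mean rise from sham to UUO7 was left, and the difference from sham was not called (log2 0.64, SE 0.35, adjusted p = 0.117). Without R4W replicate 4 it was 0.87 and was called, and on values as deposited it was 1.01 and was called. Birc5 measured 4.25, 6.38, 6.31 and 3.46 in R4W, which left 22.00% of its rise and remained above every sham (log2 0.97, adjusted p = 0.000465). Bax measured 66.1, 77.1, 71.6 and 55.8, overlapping sham, with 10.8% of its rise left, and was not called against it (log2 0.07, adjusted p = 0.523), although as deposited the difference was 0.44 and was called. Tradd went below sham (log2 -0.20, adjusted p = 0.0416), a call that was lost without sham replicate 2, R4W replicate 1 or R4W replicate 4 and that turned to 0.16 on values as deposited.

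The necroptosis genes and the cIAP genes kept part of their rise. Ripk3 measured 5.11, 5.29, 8.55 and 6.80 at 1 week after reversal, 6.03, 3.41, 6.22 and 5.66 at 2 weeks and 3.69, 4.54, 4.31 and 2.06 at 4 weeks. The R4W values lay below every UUO7 value and above every sham value, with 38.96% of the rise left (log2 -0.99 against UUO7, adjusted p = 0.00386, and 1.33 against sham, adjusted p = 0.000166). Mlkl measured 2.64, 3.61, 3.04 and 2.21 in R4W, also between UUO7 and sham without overlap, with 43.1% left. Birc3 measured 15.6, 24.6, 23.02 and 15.8 and kept 47.6%, and Birc2 kept 51.96%. Pycard measured 34.5, 40.6, 40.4 and 34.5 and kept 49.5%, and Tnfrsf1a measured 48.2, 49.3, 49.2 and 42.1 and kept 42.98%. For each of these 6 genes the R4W libraries were below all UUO7 libraries and above all sham libraries.

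Casp1, Casp4, Casp12 and Gsdmd were still called higher than sham in R4W, without overlap. Casp1 measured 4.99, 3.51, 4.36 and 3.52 in R2W and 3.63, 5.29, 5.07 and 3.10 in R4W, and was higher in R4W than in UUO7 (log2 0.42, SE 0.13, adjusted p = 0.0131), though not called so on values as deposited (0.35). Casp12 measured 6.98, 9.39, 7.88 and 5.92 in R4W, and its difference of 0.26 from UUO7 was not called. Casp4 measured 14.2, 12.2, 24.04 and 13.8 in R2W and 8.82, 15.7, 16.2 and 8.51 in R4W. Replicates 1 and 4 of R4W were lower than replicates 2 and 3, and all were above sham (log2 2.44, SE 0.22, adjusted p = 1.57e-08). Gsdmd measured 12.97, 17.6, 17.1 and 9.69 in R4W, lower than every UUO7 library (log2 -0.49, adjusted p = 0.0194) and above every sham (log2 2.16, adjusted p = 2.97e-09).

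Tnfsf13b had the greatest difference of R4W from sham among the 60 genes on the log2(scaled FPKM + 1) scale. That rank depends on the scale, and in the authors' deposited table Casp12 (log2 3.49) was above Tnfsf13b (log2 3.47). Tnfsf13b measured 8.27, 9.89, 13.8 and 10.1 at 1 week after reversal, 12.8, 9.27, 15.8 and 11.1 at 2 weeks and 10.7, 14.4, 15.5 and 7.24 at 4 weeks (log2 2.54 against sham, SE 0.19, adjusted p = 2.2e-09). The R4W values overlapped with UUO7 and the difference between them was not called (log2 0.36, adjusted p = 0.12). Tnfrsf1b measured 13.2, 6.23, 12.7 and 8.33 in R2W and 8.23, 12.1, 11.04 and 6.09 in R4W (log2 2.37 against sham). Tnfrsf9 had 2.22 ± 0.116 in UUO7 and 0.966 ± 0.616 in R4W, with 41.5% of its rise left, and Tnfrsf13b reached 1.81 ± 0.790 in R4W, with 63.4% left. The summed B and plasma cell markers were highest in R4W, and their part in Tnfsf13b and Tnfrsf13b was not tested. The T cell receptors Tnfrsf4 (OX40) and Tnfrsf18 (GITR), neighbours on chromosome 4, rose from UUO7 to R4W, from 2.57 ± 0.303 to 4.31 ± 1.74 and from 3.23 ± 0.426 to 4.88 ± 0.990, and these 2 calls were lost on values as deposited. In R4W the pair of libraries with low Casp4, replicates 1 and 4, was also low for Casp1, Casp12, Tnfsf13b, Aim2 and Tnfrsf4. Their macrophage markers summed to 900 and 677, against 1277 and 1238 in replicates 2 and 3, and the part of that difference in these genes was not tested. R4W replicate 2 is the library whose labels disagree, and with it placed in R2W 37 genes were higher and 7 lower in R4W than in sham, with 56% of all genes called. That placing gave 9 higher and 23 lower against UUO7 (45.8% of all genes called), and 2 higher and 7 lower against R1W (13.6%), of which 6 were among the 10 called otherwise. Tnf itself measured 1.32, 1.93, 2.26 and 1.27 in R4W, with 93.5% of its rise left.

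The genes that were low in UUO7 took different courses after reversal. Tnfsf10 measured 14.01, 14.1, 13.6 and 16.1 in R4W and overlapped with sham (log2 0.21, adjusted p = 0.255, and 0.56 with a call on values as deposited). Nlrp6 measured 25.98, 14.4, 16.7 and 21.5 at 1 week after reversal, 18.7, 33.00, 22.2 and 30.8 at 2 weeks and 23.8, 24.1, 26.2 and 34.8 at 4 weeks, above all UUO7 libraries and below all shams (log2 1.15 against UUO7 and -1.07 against sham, adjusted p = 0.00116). Bcl2l13 measured 7.28, 7.27, 7.99 and 6.10 and likewise lay between both groups (log2 -0.60 against sham, adjusted p = 0.00165, and -0.26 without a call on values as deposited). The proximal tubule markers also stood between UUO7 and sham in R4W, and their part in these 2 genes was not tested. Gsdme was at its lowest in R2W and R4W, with 5.67, 6.00, 6.20 and 7.07 in R4W against 10.2, 7.80, 9.00 and 9.60 in sham (log2 -0.49, adjusted p = 7.19e-05, and -0.15 without a call on values as deposited).

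Gsdmc2, Gsdmc3 and Tnfrsf19 varied widely between animals of a group. Gsdmc2, a gasdermin of surface epithelia, measured 0.177, 12.1, 0.444 and 0.806 in sham, 0.157, 0.317, 0.0335 and 0.530 in UUO2 and 4.04, 3.60, 5.00 and 10.4 in UUO7. After reversal it measured 5.65, 18.97, 3.22 and 2.92 at 1 week, 27.9, 3.19, 5.27 and 4.07 at 2 weeks and 13.8, 3.23, 10.6 and 11.1 at 4 weeks. Within each group 1 library was the highest for Gsdmc2, Gsdmc3 and Tnfrsf19 alike: sham replicate 2, UUO2 replicate 4, UUO7 replicate 4, R1W replicate 2, R2W replicate 1 and R4W replicate 1. For Gsdmc3 these libraries measured 11.2, 0.365, 8.59, 16.9, 28.1 and 7.80, and for Tnfrsf19 1.06, 0.166, 0.862, 5.21, 4.68 and 2.67. The same 6 libraries had the highest summed urothelium markers of their groups, at 29.1, 2.92, 21.9, 35.98, 54.4 and 100.4, whose part in these genes was not tested. Gsdmc2 and Gsdmc3 are close copies on chromosome 15 whose reads could be split. Neither was called in UUO7 against sham, and both were without sham replicate 2 (log2 2.12 and 1.89). On values as deposited Gsdmc2 was called with all shams (log2 1.60).

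**Figure D5:**
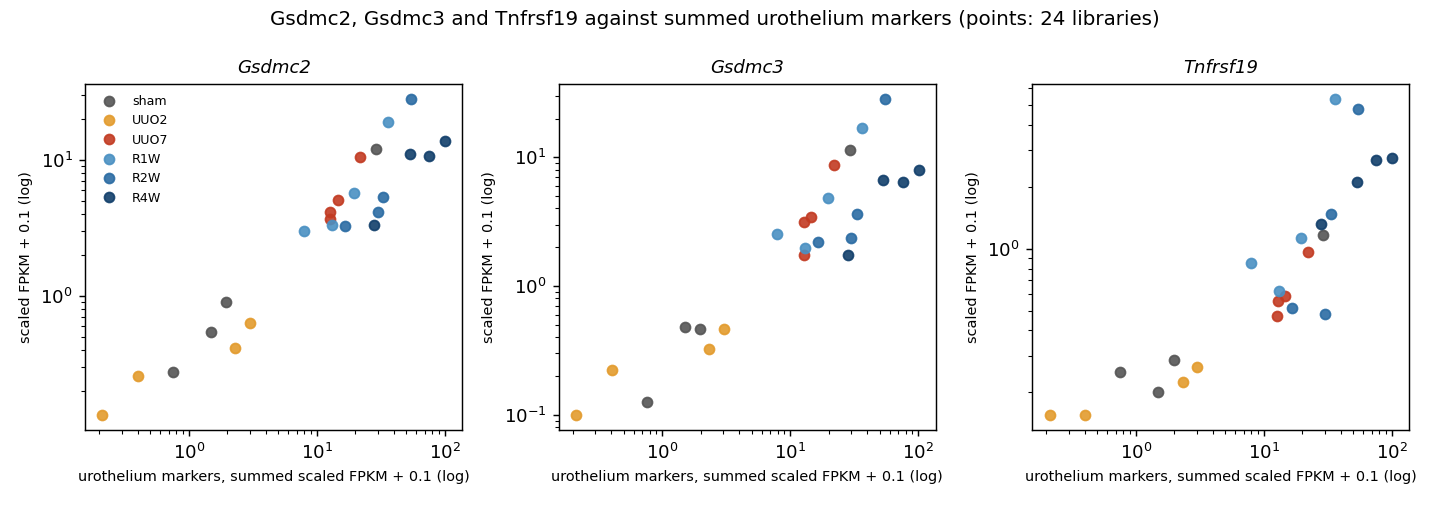
Scaled FPKM of Gsdmc2, Gsdmc3 and Tnfrsf19 (y axes, log scale after adding 0.1) against the summed scaled FPKM of the urothelium markers Upk1b, Upk2, Upk3a and Krt5 (x axes, log scale after adding 0.1). Each point is 1 of the 24 libraries, coloured by group. Libraries with little urothelium signal, which are 3 shams and the 4 UUO2 libraries, lie at the lower left, and sham replicate 2 lies with the UUO7 and recovery libraries.

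Further members were measured as follows. Ripk2, a kinase of NOD signalling, rose in UUO7 (log2 0.71) and was higher than sham in R4W (log2 0.54). Ripk4, an epithelial kinase, was lower in UUO7 (log2 -0.31, and 0.10 without a call on values as deposited). Among the BCL2-like genes, Bcl2l12 and Bcl2l14 rose in UUO7 (log2 0.96 and 0.55) and were higher than sham in R4W, the former with exons that overlap Irf3, while Bcl2l11 (BIM, a BH3-only killer) was not called (log2 0.24, with a call at 0.62 as deposited). The ligands Tnfsf9 (4-1BB ligand) and Tnfsf13 (APRIL) rose (log2 1.13 and 0.61). The receptor Tnfrsf14 (HVEM) rose as well (log2 1.08). Tnfrsf11a (RANK) and Tnfrsf25 (death receptor 3) were not called in UUO7 after scaling (log2 0.20 and 0.33) and were called higher as deposited (0.48 and 0.68). Casp8ap2, which binds caspase-8, was not called in either way (log2 -0.04, and 0.25 as deposited).

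Other genes of these pathways were taken from lists of signalling partners. Of 57 listed partners with a row, 37 were higher and 12 lower in UUO7 than in sham, 4 higher and 9 lower in R1W than in UUO7, and 36 higher and 13 lower in R4W than in sham. Of all genes, limma called 73%, 14.4% and 60.1% in these 3 comparisons, a high background in the first and the last. Partners low in sham, Tnf among them, are in the table through groups in which they were higher. Nothing is therefore read from the splits or medians of these lists. Of the 24 genes of TNF receptor signalling and NF-kB, 16 rose and 5 fell in UUO7 (36.5% of all genes each way), with a median of 0.44 beside 0.01 for all genes, and 3 of these calls were lost on values as deposited and 1 turned. Tnfaip3 (A20, a brake on NF-kB) rose from 1.73 ± 0.207 to 4.29 ± 1.40 in UUO2 and 8.83 ± 1.43 in UUO7 (log2 1.84, adjusted p = 6.62e-09), and stood at 5.54 ± 1.38 in R4W. Fas, a death receptor whose name falls outside the rule, rose slightly in UUO7 (log2 0.38, adjusted p = 0.000428) and stayed there in R4W (log2 0.41 against sham), and its ligand Fasl is not analysed here. Cflar (c-FLIP, the inhibitor of caspase-8) was lower in UUO7, with 57.1, 48.3, 58.96 and 56.6 in sham and 42.96, 43.4, 46.8 and 37.5 in UUO7 (log2 -0.37, adjusted p = 0.000511), and higher without a call on values as deposited (0.11). Of the 16 genes of BH3-only proteins and mitochondrial apoptosis, 9 rose and 4 fell in UUO7, and of 9 partners of pyroptosis and necroptosis 6 rose and 3 fell, again beside 36.5% of all genes in each direction.

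The authors' deposited table gives adjusted p-values of its own for the same contrasts. By the authors' deposited table, 51 of the 60 genes were called in UUO7 against sham, and 48 of the 49 called here were among them in the same direction, beside 72.8% of all genes called there. By the authors' deposited table, 45 were called in R4W against sham, of which 42 were among the 44 called here, beside 64.9% of all genes. By the authors' deposited table, 40 were called in R4W against UUO7, of which 32 were among the 33 called here, beside 52.7% of all genes. By the authors' deposited table, 19 were called in R1W against UUO7, against 11 here, with 10 in both, beside 21.1% of all genes. By the authors' deposited table, 13 were called in R4W against R1W, against 10 here, with 7 in both, beside 17.5% of all genes. By the authors' deposited table, 32 were called in UUO2 against sham and 43 in UUO7 against UUO2, with 29 of 29 and 41 of 45 called here among them, beside 50.3% and 61.1% of all genes. Across the 7 contrasts 0 genes were called in opposite directions by the authors' deposited table and here.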

How the data were processed

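Bulk RNA was sequenced from 24 mouse kidneys, 4 in each of 6 groups. The authors deposited 1 table of per-gene values for the 24 libraries, whose unit is not named in its header and which behave as FPKM, together with log2 fold changes and adjusted p-values of their own. Per the submitters' processing notes the tools were FastQC, Bowtie2, RSEM and DESeq2 with mouse build mm10. Which tool made the deposited FPKM, and whether counting used strand, is not given in the sources used here. Gene coordinates are those of the deposited table, and 55 of the 60 genes have the same coordinates in the GENCODE annotation used here for exon overlaps.

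The table holds no counts, so limma was used in place of the count model first planned. Each library's FPKM were divided by the median ratio to the geometric mean over the 14402 genes above 0 in every library (factors 0.789 to 1.19), because the deposited values shift the median of all genes between groups. Then log2(scaled FPKM + 1) was fitted in limma 3.58.1 (R 4.3.3) with all 24 libraries, 1 mean per group and trended empirical Bayes. P-values were adjusted by Benjamini-Hochberg over 14785 genes in each of 7 contrasts. A log2 difference on this scale understates the change of low genes. Nothing says whether the 4 libraries of a group were prepared separately, so the p-values measure the spread between these samples. R2W entered the fit but no contrast. The fit was tested on simulated data for 24 libraries and 14785 genes. Each gene had its mean over all libraries and its spread within groups, and 200 genes were changed in UUO7. Against sham the fit recovered 90 of 100 genes changed by 1 on the log2 scale and 98 of 100 changed by 2, with 6 false calls. In the real comparison limma called 73% of all genes, so the false calls do not carry over to it.

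The genes, the lists of partners and markers, and the rule for naming genes were chosen with earlier results of these data known. That rule took 1 list of well-known genes and those with the greatest called differences in UUO7 against sham, R1W against UUO7 and R4W against sham. Some genes of the set are not reported here by name. All other genes given with values were named after their values were seen. Replicate numbers were checked for pairing: deviations of same-numbered libraries from their group means correlated at -0.293 to 0.458, not above 0.1 for every number in any contrast, so the numbers do not pair the samples. Alternatives were other pseudocounts, no scaling, a mean of at least 5, a minimum fold, 2-group fits, the replicate block, each library left out, and the other label of R4W replicate 2. A fit without UUO2 was added after seeing the data.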

Additional observations from a re-analysis of the deposited data

Results flagged for a closer look

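For the named genes, each group of 4 libraries was examined for a highest or lowest library far from the others (Dixon's test at the 95% level). This marked 22 of 234 groups of values, and chance alone marks about 1 in 20, here 11.7.

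UUO2 replicate 2 was the distant library for 8 genes, each time on the side of sham. Its scaled FPKM were 82.4 for Bax, 6.02 for Fas, 46.0 for Mcl1, 0.215 for Tnf, 49.4 for Tnfrsf12a and 38.3 for Tnfrsf1a, all below the other UUO2 libraries. It was above them for Nlrp6 at 44.2 and for Tnfsf10 at 8.63. Sham replicate 2 was distant for 4 genes, below the other shams for Casp8 at 17.6 and above them for Tnfrsf10b at 2.06, Tnfrsf12a at 29.4 and Tnfrsf1b at 1.82.

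R2W replicate 3 was high for Casp4 at 24.0 and for Tnfrsf12a at 64.0. R4W replicate 4 was low for Tnfrsf12a at 22.9 and for Tnfrsf1a at 42.1. Single libraries were high for Bcl2l13 in UUO7 replicate 2 at 5.46, Tnfsf12 in UUO7 replicate 3 at 44.3, Bcl2l2 in sham replicate 3 at 28.4, Mlkl in R1W replicate 3 at 4.83, Tnfsf10 in R1W replicate 2 at 16.4 and Tnfrsf21 in R2W replicate 2 at 69.8.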

How the results depend on the processing

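With a minimum absolute log2 difference of 1, the number of the 60 genes called was 9 in UUO2 against sham, 26 in UUO7 against sham, 11 in UUO7 against UUO2, 1 in R1W against UUO7, 3 in R4W against UUO7, 0 in R4W against R1W (18 at an unadjusted p under 0.05 in limma, beside 5192 of all 14785 genes) and 18 in R4W against sham. The share of all genes called was then 9.06%, 24.1%, 14.2%, 1.26%, 5.8%, 0.805% and 13.1% in the same order. With a mean of at least 5, which tests only 36 of the 60 genes, UUO7 had 31 calls against sham (20 higher, 11 lower, 75.7% of all genes called) and 26 against UUO2 (63.9%), and R4W had 24 against sham (62.6%). A fit on the 2 groups alone called 0 in R4W against R1W (0.778% of all genes), and the cause was not tested. In that limma fit 20 of the 60 genes had an unadjusted p under 0.05, beside 4461 of all 14785 genes. Leaving out 1 library gave 27 to 31, 48 to 51, 40 to 46, 6 to 12, 28 to 32, 2 to 11 and 40 to 45 called genes for the same 7 contrasts in the same order. The share of all genes called then was 44.1% to 54.9%, 69.7% to 72.2%, 58.4% to 61.7%, 7.36% to 16.5%, 38.9% to 45.8%, 3.18% to 21.9% and 54.9% to 60.1%. Without UUO2 in the model, added after seeing the data, R1W against UUO7 called 15 genes (17.6% of all genes) and R4W against R1W 15 (20% of all genes).

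On values as deposited 15 differences of the genes chosen by the naming rule changed sign. Among other genes given above, Birc6, Ripk4 and Casp8ap2 also changed sign in UUO7 against sham. The 15 were as follows. In UUO7 against sham they became 0.035 for Ripk1, 0.11 for Cflar, 0.090 for Bcl2l2, 0.15 for Gsdme, 0.16 for Fadd and 0.31 for Casp9. In UUO7 against UUO2 they became 0.33 for Casp8, 0.17 for Cflar, 0.11 for Gsdme and 0.20 for Fadd. In R4W against sham they became 0.25 for Casp8, 0.32 for Bcl2l2, 0.042 for Fadd, 0.12 for Casp9 and 0.16 for Tradd. With the replicate number as a block, though the numbers do not pair the samples, 28, 48, 44, 11, 32, 9 and 44 genes were called in the 7 contrasts in the order above. The share of all genes called was then 49.7%, 72.6%, 61.5%, 12.5%, 47%, 16.4% and 59.7%. DESeq2 and edgeR were not run, since no counts were used here.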
